A study of Mus musculus with 2 samples.

Results

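The miR-10 and miR-196 genes of the Hox clusters were examined in the embryonic mouse kidney. The members are 5 microRNA (miRNA) genes listed by name for their position, Mir10a, Mir10b, Mir196a-1, Mir196a-2 and Mir196b, out of 1973 miRNA genes in the files. RNA shorter than 30 nt was sequenced from kidneys of B6NCrl embryos at 15.5 days, from healthy animals with no treatment or mutant allele in the labels. The 2 libraries form 1 group, and each is a pool of male and female embryos, 78 in replicate 1 and 62 in replicate 2. The design holds no contrast, so the data answer how much of each gene the kidney carried and how far the pools differed. Whole kidneys were sequenced, so more cells of a type and more RNA per cell cannot be told apart.

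Hox genes encode transcription factors that pattern the body along its main axis, in an order along the chromosome that follows the order of their expression domains. The miR-10 and miR-196 genes lie between them and are expressed in like domains. Both miRNA families pair with messenger RNAs of Hox genes, and in mouse embryos miR-196 directs cleavage of Hoxb8 messenger RNA. In mouse, the Hox genes of the Hoxa11, Hoxc11 and Hoxd11 group are required for the kidney to form.

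The mature sequences show which members reads can tell apart. They come from RefSeq (GRCm38.p6), which held all 5 members. Each line gives the 5′ arm from 5′ to 3′, with the seed, bases 2 to 8, by which a miRNA recognises its targets, in capitals. The first 4 are made by the members. The next 3 are relatives outside the Hox clusters, and the last is a let-7 sequence.
miR-10a-5p: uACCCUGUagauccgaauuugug
miR-10b-5p: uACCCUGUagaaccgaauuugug
miR-196a-5p: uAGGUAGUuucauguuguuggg
miR-196b-5p: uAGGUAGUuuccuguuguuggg
miR-99a-5p: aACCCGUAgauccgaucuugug
miR-99b-5p: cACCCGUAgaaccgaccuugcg
miR-100-5p: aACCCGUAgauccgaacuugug
let-7g-5p: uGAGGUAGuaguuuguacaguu

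The members fall into 2 seed groups. Mir10a and Mir10b share the seed ACCCUGU, and no other mature miRNA among the 1679 in the RefSeq table has it. The 3 Mir196 genes share AGGUAGU, which also occurs in no other entry. Within each group the mature sequences differ at a single base, and in both it is position 12 from the 5′ end: U12A from miR-10a-5p to miR-10b-5p, and A12C from miR-196a-5p to miR-196b-5p. The seed AGGUAGU of miR-196 also stands at positions 3 to 9 of let-7g-5p, shifted by 1 base. The miR-10a and miR-100 sequences share a run of 11 nt, GUAGAUCCGAA, but the seed of miR-99 and miR-100 is ACCCGUA. Among the members, only Mir196a-1 and Mir196a-2 have a mature sequence in common.

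Those 2 genes both make miR-196a-5p. Their hairpins are shown because the shared run, in capitals, sets which reads could be assigned to either gene.
Mir196a-1: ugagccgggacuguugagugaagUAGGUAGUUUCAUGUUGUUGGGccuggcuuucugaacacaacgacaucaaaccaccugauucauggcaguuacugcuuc
Mir196a-2: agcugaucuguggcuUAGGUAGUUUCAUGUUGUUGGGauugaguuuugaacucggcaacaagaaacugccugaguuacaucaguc
The shared run is 22 nt long and is exactly the mature 5′ arm. Reads lying within it match both loci, and reads matching several loci were set apart from the gene counts. Of the 81 stretches of 22 nt in Mir196a-1, 1 occurs in Mir196a-2, and no stretch of 23 nt does. The counts of these genes thus leave out reads that lie inside miR-196a-5p, and the levels given for them can be too low. The hairpins of Mir10a and Mir10b share at most 15 nt, and no stretch of 18 nt or more from Mir10a, Mir10b or Mir196b occurs in a miRNA gene elsewhere. Copies outside annotated miRNA genes were not searched, so reads of these genes may be missing from their counts too.

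The position of each member among the Hox genes follows its family. In the mm10 assembly, with GENCODE M21 names, Mir10a (ENSMUSG00000065519.1) lies at chr11:96317165-96317274, plus strand, 992 nt upstream of Hoxb4 and outside any gene annotated on its strand. Mir10b (ENSMUSG00000065500.2) lies at chr2:74726070-74726137, plus strand, in introns annotated to Hoxd3 and Hoxd4. Mir196b (ENSMUSG00000065443.1) lies at chr6:52230081-52230165, minus strand, in an exon annotated to Hoxa9 and 1031 nt downstream of Hoxa10. Mir196a-2 (ENSMUSG00000065488.1) lies at chr15:102973350-102973434, plus strand, in an intron annotated to Hoxc5, 1456 nt downstream of Hoxc10 and 3004 nt upstream of Hoxc9. Mir196a-1 (ENSMUSG00000065546.1) lies at chr11:96265164-96265265, plus strand, in no gene of its strand and 6191 nt upstream of Hoxb9. The miR-10 genes thus sit within or next upstream of the Hox gene of paralog group 4. The miR-196 genes sit within or next upstream of that of group 9, and Mir196b and Mir196a-2 lie just downstream of that of group 10.

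**Figure D1:**
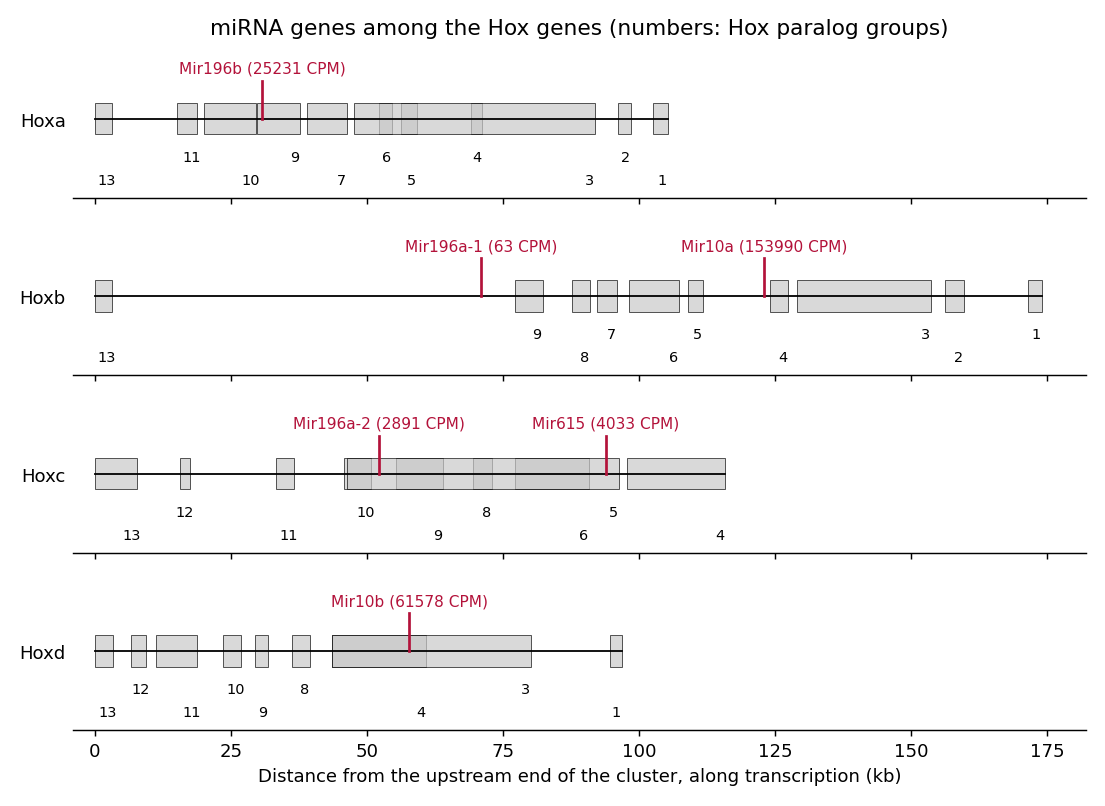
Hox genes (grey boxes, with the number of their paralog group) and miRNA genes (red, with mean CPM of the 2 libraries) in the 4 Hox clusters, by distance in kb from the upstream end of the cluster along transcription. Mir196b, Mir196a-1 and Mir196a-2 stand at or upstream of the group 9 gene, and Mir10a and Mir10b at or upstream of the group 4 gene; Mir615 is a sixth gene in the files.

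Levels are given as CPM, counts on the gene's own strand scaled to a library total of 1000000. The files hold 7434182 such reads in replicate 1 and 5863293 in replicate 2. Each value covers the whole hairpin, so 5′ and 3′ arms are not told apart. Intervals are 95% exact (Clopper-Pearson) binomial intervals, which cover counting error only. Apart from these intervals, a count of 0 was taken to allow up to 3 reads, or 0.404 and 0.512 CPM.

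Mir10a had the highest count of all miRNA genes in both libraries. This and the ranks below cover reads assigned to a single locus. Reads matching several loci, 3901906 and 3222867, outnumbered those of Mir10a, and 919 of the genes share a 20-nt stretch with another miRNA gene and can have lost reads to them. The count of Mir10a was 1243297 reads in replicate 1 and 825192 in replicate 2, or 167241 CPM (interval 166972 to 167509) and 140739 CPM (140457 to 141020). It exceeded Mir335, the second gene, by 2.45 and 2.15 times. The 1938 genes of lowest mean level together stayed below it, a number that includes genes with no read. Of all 1973 genes, 1301 had a count of 0 in replicate 1 and 1324 in replicate 2.

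Mir10b had 485587 and 339126 reads, or 65318 CPM (interval 65141 to 65496) and 57839 CPM (57650 to 58028). It was at rank 3 in replicate 1 and rank 4 in replicate 2. Mir10a exceeded Mir10b by 2.497 ± 0.0899 times (SD, n = 2) in reads. Reads come from mature arms of like length, but the annotated genes are 110 and 68 nt long, and per nt of gene the ratio was 1.54 ± 0.0556.

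Mir196b had the highest count of the miR-196 genes, among reads assigned to a single locus. It had 193995 and 142867 reads, or 26095 CPM (interval 25981 to 26210) and 24366 CPM (24242 to 24491), at ranks 11 and 12. The libraries lay close together, at 25231 ± 1222 CPM (SD, n = 2). The ratio of Mir10b to Mir196b was 2.44 ± 0.0915 in reads and 3.05 ± 0.114 per nt of gene (SD, n = 2 each).

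Mir196a-2 had 17960 and 19736 reads, or 2416 CPM (interval 2381 to 2451) and 3366 CPM (3319 to 3413), at ranks 54 and 50. Mir196a-1 had 418 and 412 reads, or 56.2 CPM (51.0 to 61.9) and 70.3 CPM (63.6 to 77.4), at ranks 196 and 198. Mir196a-1 thus stood far above what a count of 0 allows, and Mir196a-2 exceeded it by 43.0 times (39.0 to 47.5) and 47.9 times (43.4 to 52.9). Both counts leave out reads that match the mature 5′ arm alone. The reads set apart for matching several loci, over the whole library, came to 212 and 160 for each read counted for these genes. The genes they match are not recorded in the counts. Neither the order of the 2 Mir196a genes nor their distance from Mir196b can therefore be read as an order of miRNA abundance.

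**Figure D2:**
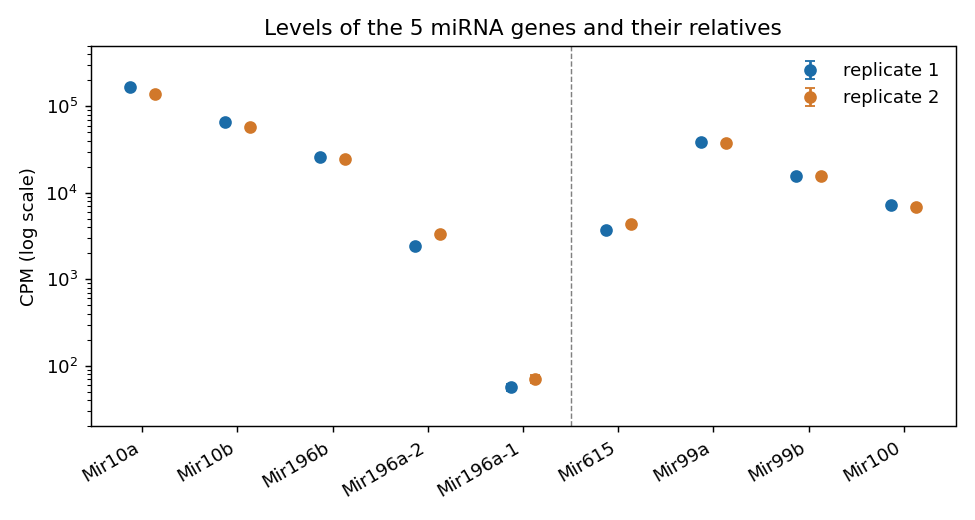
CPM on a log scale of the 5 members (left of the dashed line) and of 4 related genes, with 1 point per library and 95% exact binomial intervals, most of them smaller than the points. Levels fall from Mir10a at 167241 and 140739 CPM to Mir196a-1 at 56.2 and 70.3 CPM, in the same order in both libraries.

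The order Mir10a, Mir10b, Mir196b, Mir196a-2, Mir196a-1 held in both libraries, and every neighbouring pair in it was farther apart than the spread between libraries. The order was the same per nt of gene, with means from 1400 CPM per nt for Mir10a and 906 for Mir10b to 0.620 for Mir196a-1. The 5 genes ran from rank 1 to rank 201 of 1973 by mean CPM, and all 5 reached 1 CPM in both libraries, against 394 of all genes. Within the summed counts of the 5 genes, Mir10a held 63.1% ± 1.33, Mir10b 25.3% ± 0.379, Mir196b 10.4% ± 0.545, Mir196a-2 1.21% ± 0.397 and Mir196a-1 0.0263% ± 0.00672 (SD, n = 2 each).

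**Figure D3:**
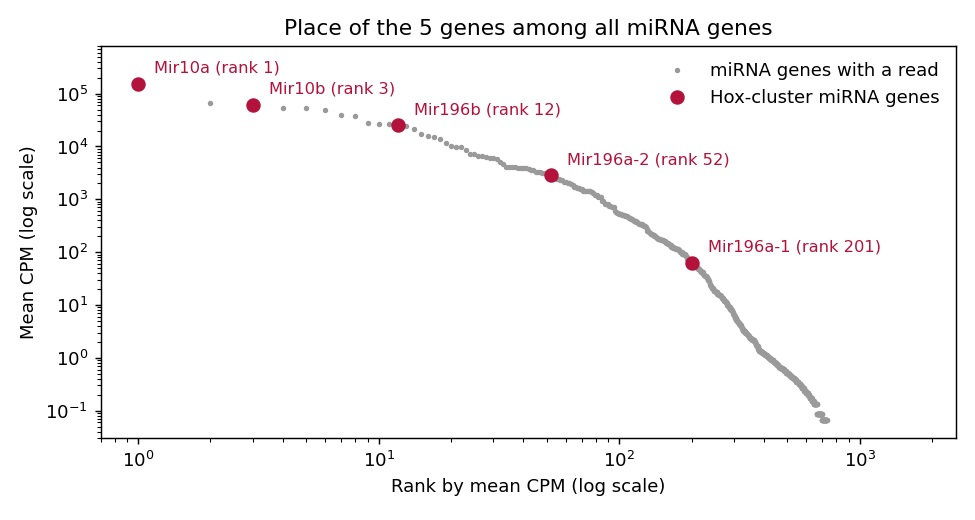
Mean CPM of the 2 libraries against rank for every miRNA gene with a read, both on log scales, with the 5 members in red. The members stand at ranks 1, 3, 12, 52 and 201.

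By family, counts assigned to a single locus were higher for miR-10 than for miR-196. Mir10a and Mir10b together held 23.3% of counts in replicate 1 and 19.9% in replicate 2, and the 3 Mir196 genes held 2.86% and 2.78%. The ratio of miR-10 to miR-196 counts was 8.14 (interval 8.10 to 8.18) and 7.14 (7.11 to 7.18), and 6.95 ± 0.615 (SD, n = 2) per nt of gene. This ratio is free of the library total, but reads of miR-196a-5p are missing from its denominator, so it is an upper value for these libraries as far as those reads go.

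By cluster, the Hoxb members led with 15.4% ± 1.87 of counts, nearly all from Mir10a. Mir10b gave the Hoxd cluster 6.16% ± 0.529 and Mir196b gave the Hoxa cluster 2.52% ± 0.122. Mir196a-2 gave the Hoxc cluster 0.289% ± 0.0672 (SD, n = 2 each).

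The annotation places other miRNA genes in the Hox clusters. Of the 7 in GENCODE M21, 6 have a line in the files, and the sixth is Mir615 (ENSMUSG00000076010.1) at chr15:103014910-103015001, in an intron annotated to Hoxc5. Mir615 had 27417 and 25664 reads, or 3688 and 4377 CPM, at ranks 39 and 36. Its count exceeded that of Mir196a-2, its neighbour in the cluster, by 1.53 and 1.30 times, which may change with the reads missing from Mir196a-2. With Mir615 the Hoxc cluster held 0.692% ± 0.116 of counts (SD, n = 2). The seventh, Gm44463 in the Hoxd cluster, was not analysed here.

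The miR-99 and miR-100 genes, relatives of miR-10 that lie outside the Hox clusters, were lower than miR-10. Mir99a stood at 38236 and 37621 CPM, Mir99b at 15830 and 15531 CPM and Mir100 at 7316 and 6829 CPM. The 3 genes together held 6.07% ± 0.0990 of counts (SD, n = 2), and the ratio of miR-10 to them was 3.79 and 3.31 in reads, and 2.74 and 2.40 per nt of gene. With them, 29.4% and 25.9% of all counts came from the 5 miR-10, miR-99 and miR-100 genes.

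Scaled by library totals, the pools differed in the 5 genes by more than counting error, and by less than 2-fold. Mir10a, Mir10b and Mir196b were lower in replicate 2, with log2 ratios of replicate 2 over replicate 1 of -0.25 (interval -0.25 to -0.24), -0.18 (-0.18 to -0.17) and -0.10 (-0.11 to -0.09). Mir196a-2 and Mir196a-1 were higher, at 0.48 (0.45 to 0.51) and 0.32 (0.12 to 0.52). The 3 members with the highest counts thus moved down and the 2 genes that share a mature arm moved up. Reads inside miR-196a-5p are missing from the counts of those 2 genes, so their rise cannot be read as a rise of that miRNA. Counts of each gene were compared by an exact binomial test (two-sided, on the share of reads expected from the library totals), with Benjamini-Hochberg adjustment over the 378 genes whose mean count reached 10. All 5 members passed an adjusted p of 0.05. The test called 211 of the 378 genes, or 55.8%, so a call is common at this depth. For calls in 1 direction, 2 members were higher and 3 lower in replicate 2, against 40.2% and 15.6% of all tested genes. None of the 5 differed by 2-fold or more, against 6.08% of all genes. The test compares these libraries and not conditions.

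With library totals as the scale, the shifts of Mir10a, Mir10b and Mir196b were in size close to or below that of the median gene. Those of the Mir196a genes were above it. The median log2 ratio of the 378 genes was 0.15, and relative to it the members stood at -0.40 (Mir10a), -0.32 (Mir10b), -0.25 (Mir196b), 0.17 (Mir196a-1) and 0.33 (Mir196a-2). Over the 264 genes whose mean count reached 100, the median absolute log2 ratio was 0.25. Mir196a-2 had a larger absolute ratio than 76.1% of them, Mir196a-1 than 62.5%, Mir10a than 51.1%, Mir10b than 37.9% and Mir196b than 22.3%. Scaling by TMM or by DESeq2 size factors moved every log2 ratio by -0.13 or -0.16, and no member changed direction. The order of the sizes did change. With TMM, Mir10a had the largest shift of the members, at -0.38, against 0.35 for Mir196a-2 and 0.19 for Mir196a-1. With DESeq2 size factors these were -0.41, 0.32 and 0.16, and Mir10b, at -0.34, also exceeded Mir196a-2 in size. The call of Mir196a-1 (adjusted p = 0.0030 in the binomial test, from 418 and 412 reads) was lost under both, at adjusted p = 0.090 with TMM and 0.17 with DESeq2 size factors. Of all called genes, 72.0% were higher in replicate 2, but 49.5% with TMM and 46.2% with DESeq2 size factors; among the called members it was 2 of 5, and 1 of 4 under either alternative.

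**Figure D4:**
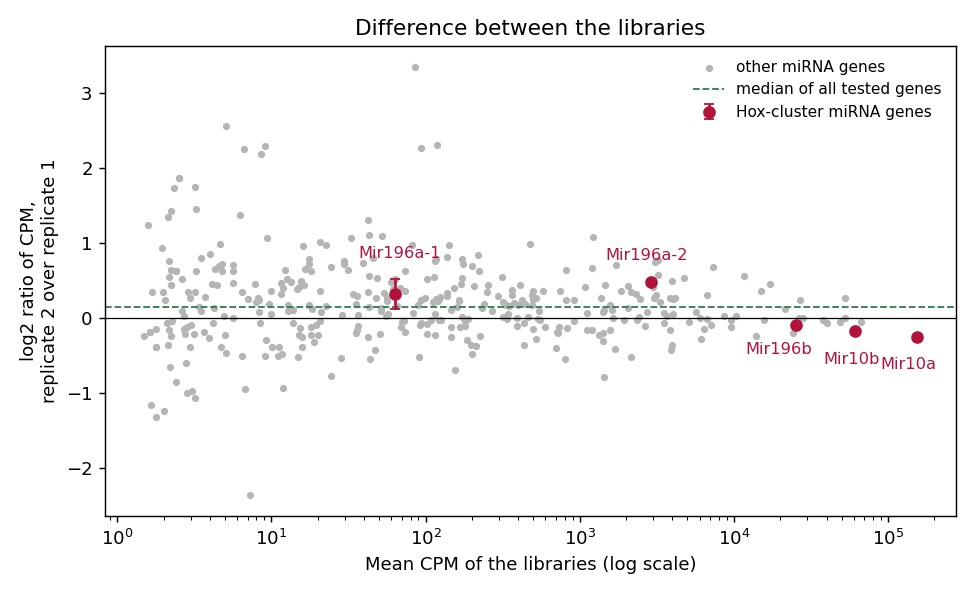
Log2 ratio of CPM, replicate 2 over replicate 1, against mean CPM (log scale) for the 378 genes whose mean count reached 10, with the members in red and their 95% exact binomial intervals. Mir10a, Mir10b and Mir196b lie below 0 and below the median of all tested genes at 0.15, and both Mir196a genes lie above it.

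Ratios within a library do not depend on its total. From replicate 1 to replicate 2, the ratio of Mir196b to Mir196a-2 went from 10.8 (interval 10.6 to 10.97) to 7.24 (7.13 to 7.35), and that of Mir10a to Mir196a-2 from 69.2 (68.2 to 70.3) to 41.8 (41.2 to 42.4). The latter is a change of 1.66 times. The ratio of Mir10a to Mir10b changed by 1.05 times only, from 2.56 to 2.43. The ratio of Mir10a to Mir196b changed by 1.11 times, and that of Mir196b to Mir196a-2 by 1.49 times. Proportions among the 3 members with mature sequences of their own thus changed less than the proportion of Mir10a or Mir196b to Mir196a-2. The count of Mir196a-2 leaves out reads inside miR-196a-5p, so the changes against it cannot be read as changes in miRNA abundance.

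Levels of miRNA genes listed for parts of the kidney and for other tissues were set beside the tissue label. The lists were chosen with earlier results of these data known, so the levels are not an independent check of the label. All 9 genes listed for nephron epithelium, ureteric epithelium, vessels and stroma lay between 3289 and 49708 CPM in either library. The 7 genes in the files that were listed for liver, muscle, brain, blood and endocrine cells lay between 0 and 1677 CPM, where the count of 0 is for Mir9-2, whose hairpin shares sequence with another miRNA gene. The 3 genes listed as enriched in adult kidney, Mir192, Mir194-2 and Mir204, had means of 73.4 to 200.4 CPM. The lowest is for Mir194-2, whose hairpin also shares sequence with another miRNA gene and can have lost reads. All 3 means lay below those of Mir122 of liver (474 CPM), Mir206 of muscle (809 CPM) and Mir375 of endocrine cells (1460.1 CPM). The part of such cells in the levels of the 5 genes was not tested.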

How the data were processed

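Small RNA libraries from 2 pools of kidneys at 15.5 days were analysed. The deposited files list raw counts of reads for every miRNA gene in 3 columns: strand ignored, own strand, opposite strand. The authors counted on mm10 with annotation M4 of GENCODE, per the file headers of the accompanying notes. Which aligner and counter were used is not given in the sources used here. Lines that name no gene stayed out of library totals. They held unmapped reads (17.7% and 19.7% of reads in replicate 1 and 2), reads matching several loci (27.1% and 26.6%), and, for the own strand, reads outside genes or opposite to them (3.71% and 5.20%).

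Own-strand counts were used. They leave out 2.16% and 2.33% of gene reads. Gene identifiers were looked up in GENCODE M21, which is on mm10 too, for names and positions; this named 1894 of 1973 genes. Mature sequences and hairpins came from RefSeq, and the 5 hairpins equal those of GENCODE M21. With 1 group, no contrast could be fitted, so edgeR 4.0.16 (TMM) and DESeq2 1.42.0 (size factors), in R 4.3.3, gave scalings only. The exact binomial test was tested on simulated counts. It recovered known changes, but in the first designs, whose changes moved the library totals, it also called many unchanged genes, so the simulation was redesigned to keep totals balanced. Calls between the libraries therefore depend on the totals. The simulated counts varied by counting error only, which is what the test assumes, so variation between pools was not tested. Python 3.11.15, scipy 1.17.1, pandas 2.3.3, numpy 2.4.6 and matplotlib 3.10.9 were used. The labels call the libraries biological replicates; both pools come from 1 strain.

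The named genes are the members, other miRNA genes in the Hox clusters, Mir99a, Mir99b, Mir100, and the 3 genes nearest to each member by Euclidean distance of log2(CPM + 1) in the 2 libraries. Members, lists and tests were chosen with earlier results of these data known. Hoxb8 and Rps6ka2 fall outside the rule and were named after their values were seen. Alternatives tried were both strands summed, other library totals, count filters, TMM, DESeq2 size factors, a pseudocount, gene length, and each replicate left out. The tissue lists also held Mir124-2 and Mir142, which were not analysed here.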

Additional observations from a re-analysis of the deposited data

How the results depend on the processing

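The 5 genes held 24.4% ± 2.46 of own-strand counts (SD, n = 2). With reads matching several loci added to the total the share was 15.9%, with all reads as the total 12.2%, and with Mir10a left out of list and total 10.6%. Without replicate 1 or replicate 2 the share ranged from 22.6% to 26.1%. Both strands summed (23.8%), genes sharing sequence left out (25.9%) and Mir615 added (24.8%, chosen after seeing the data) moved it by less than 1 SD. The ratio of miR-10 to miR-196, 7.64 ± 0.706, rose to 8.53 without the Mir196a genes and ranged from 7.14 to 8.14 with 1 replicate left out. The ratio of Mir10a to Mir10b, 2.497, was 1.54 with counts divided by gene length and ranged from 2.43 to 2.56 with 1 replicate left out. The count of members called was 5, and 4 with TMM or DESeq2 size factors. For the level of each member, reads matching several loci in the total lowered all 5 values. TMM, DESeq2 size factors and both strands summed moved them by less than 1 SD. TMM and DESeq2 size factors raise 1 library and lower the other, so they can hardly move a mean and test no stability here. With 2 libraries, leaving out either moves a mean by a fixed part of the SD, so it tests no stability. No paired analysis was possible because the samples form a single group. Depth limits Mir196a-1 alone among the members, through its 418 and 412 reads.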

Other observations

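The genes whose levels in the 2 libraries were most like those of each member came from other families and loci, with the exception of Mir10b for Mir10a. The distance is Euclidean, in log2(CPM + 1) over 2 libraries, and it mostly reflects abundance. No gene was close to Mir10a, since Mir335 stood at a distance of 1.70, Mir10b at 1.87 and Mirlet7g at 2.18. For Mir10b the nearest were Mir335 (0.189), Mirlet7g (0.328) and Mirlet7i (0.446). For Mir196b they were Mir130a (0.108), Mir26b (0.114) and Mir17 (0.234), and for Mir196a-2 they were Mir181d (0.0803), Mir22 (0.189) and Mirlet7b (0.208). Mir3102 (0.0820), Mir301b (0.140) and Mir362 (0.142) were nearest to Mir196a-1.

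The transcripts of GENCODE M21 hold a site in Hoxb8 that pairs with miR-196a-5p along its whole length. The search covered 58797 protein-coding transcripts of 21877 genes for sites that pair with every base of a member's 5′ arm, G:U pairs allowed. For miR-196a-5p it found 2 genes. The Hoxb8 site, at positions 2208 to 2229 of transcript Hoxb8-201 on chromosome 11, has 1 G:U pair among its 22. That pair lies within the seed, and the bases of the site opposite the seed are in capitals.
Hoxb8: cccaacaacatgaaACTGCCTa
The other gene, Rps6ka2, has 10 G:U pairs in its site. No transcript held such a site for miR-196b-5p, miR-10a-5p or miR-10b-5p. Hoxb8 messenger RNA was not measured in these libraries, so the match is a description of sequence.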
